A study of Mus musculus with 10 samples.

Results

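The 10 genes described here are the core BCL2 family genes of mitochondrial apoptosis, taken by gene symbol from a table of 55401 genes, and all 10 symbols were found once each. They comprise 7 pro-apoptotic genes, namely the 2 effectors Bax and Bak1 and the 5 BH3-only genes Pmaip1, Bbc3, Bcl2l11, Bid and Bad, and the 3 pro-survival genes Bcl2, Bcl2l1 and Mcl1. Their transcripts were measured by poly(A) RNA-seq in mouse embryonic stem cells of the E14 line. Mutant cells, in which CRISPR/Cas9 editing had introduced ANKRD11 Y347A, gave 6 libraries in 3 numbered sets, and wild-type E14 cells with no treatment gave 4 libraries in 2 numbered sets, with 2 libraries in every set. The labels leave it unsaid whether a set is a clone, a culture or a sequencing run, and how many edited clones were used. The p-values for genotype from set means therefore speak only to how much these sets vary, which may be technical.

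In mitochondrial apoptosis the effectors BAX and BAK form pores in the outer mitochondrial membrane and release cytochrome c, which starts the caspase cascade. Pro-survival proteins hold the effectors and the BH3-only proteins in complexes, and BH3-only proteins carry stress signals by occupying the pro-survival groove or by engaging the effectors directly. Mouse embryonic stem cells are known to be readily driven into apoptosis by DNA damage, and p53 is a known activator of Pmaip1, Bbc3 and Bax transcription.

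Levels are TPM, which are scaled by transcript length and to 1 fixed total per library, so levels of different genes can be set side by side, while sequencing depth is unknown. Each library listed between 12473 and 12812 genes at 1 TPM or more. Means are given ± SD over set means (n = 3 mutant sets and n = 2 wild-type sets). Fold changes are mutant minus wild type on the log2(TPM + 1) scale, where the change of a weakly expressed gene appears too small, and were tested with limma on set means over the 12797 genes that averaged 1 TPM or more. Of the 10 members 9 passed that filter, and Bcl2 did not. A gene is called where its Benjamini-Hochberg adjusted p is under 0.05. All 9 embryonic stem cell markers examined reached 1 TPM on average, with summed levels, mostly Dppa5a, of 9731 to 11572 TPM in mutant libraries and 10887 to 11606 TPM in wild-type libraries. Among the 9, Nanog (-0.68, limma adjusted p = 0.00674) and Zfp42 (-0.50, 0.0419) fell, Esrrb (0.28, 0.0365) and Tdgf1 (0.30, 0.0269) rose, and Pou5f1, Sox2, Klf4, Dppa5a and Utf1 did not pass the test. Of 9 fibroblast feeder markers only Thy1 and Fn1 reached 1 TPM, and Col3a1, Postn, Lum and Dcn stayed below 0.1 TPM everywhere. Summed feeder markers were at 451 to 560 TPM in mutant libraries and 397 to 436 TPM in wild-type libraries, nearly all of it Fn1, whereas Thy1 averaged 1.21 TPM in mutant sets and 2.47 TPM in wild-type sets, and neither passed the test. Summed trophoblast markers (4 of 6 at 1 TPM or more, Elf5 below 0.1 TPM everywhere) were at 26.4 to 38.3 TPM in mutant libraries and 19.1 to 25.4 TPM in wild-type libraries, mostly Tfap2c and Krt8, of which Krt8 rose (0.49, limma adjusted p = 0.0491), and 0 of 6 primitive endoderm markers reached 1 TPM. The part of these marker differences in the results below was not tested. In bulk RNA, a change in the share of cells that express a gene and a change in RNA per cell cannot be told apart.

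Among the 9 tested members, 1 rose (Mcl1), 1 fell (Pmaip1) and 7 did not pass the test, at a limma adjusted p under 0.05. Across all tested genes 17.5% were called, 6.97% higher and 10.5% lower, so the members' share of called genes lies near the background and is not a result about the family as a group. The split of all called genes, 892 higher and 1350 lower, became 1095 and 1096 with median-of-ratios scaling and 1073 and 1039 with quantile normalization, and the members' counts stayed at 1 and 1. The median log2 fold change of the 9 members was -0.14, and that of all tested genes was -0.04. Besides the called Mcl1 and Pmaip1, the smallest unadjusted limma p were 0.0265 for Bak1 and 0.0403 for Bbc3. The share of all tested genes with p values as small was not counted, so these are not a result about the family. Libraries of the genotypes did not overlap for 3 of the 9 members, Mcl1, Pmaip1 and Bak1, and 31.8% of all tested genes had such separated libraries (12.4% higher and 19.4% lower in the mutant).

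**Figure D1:**
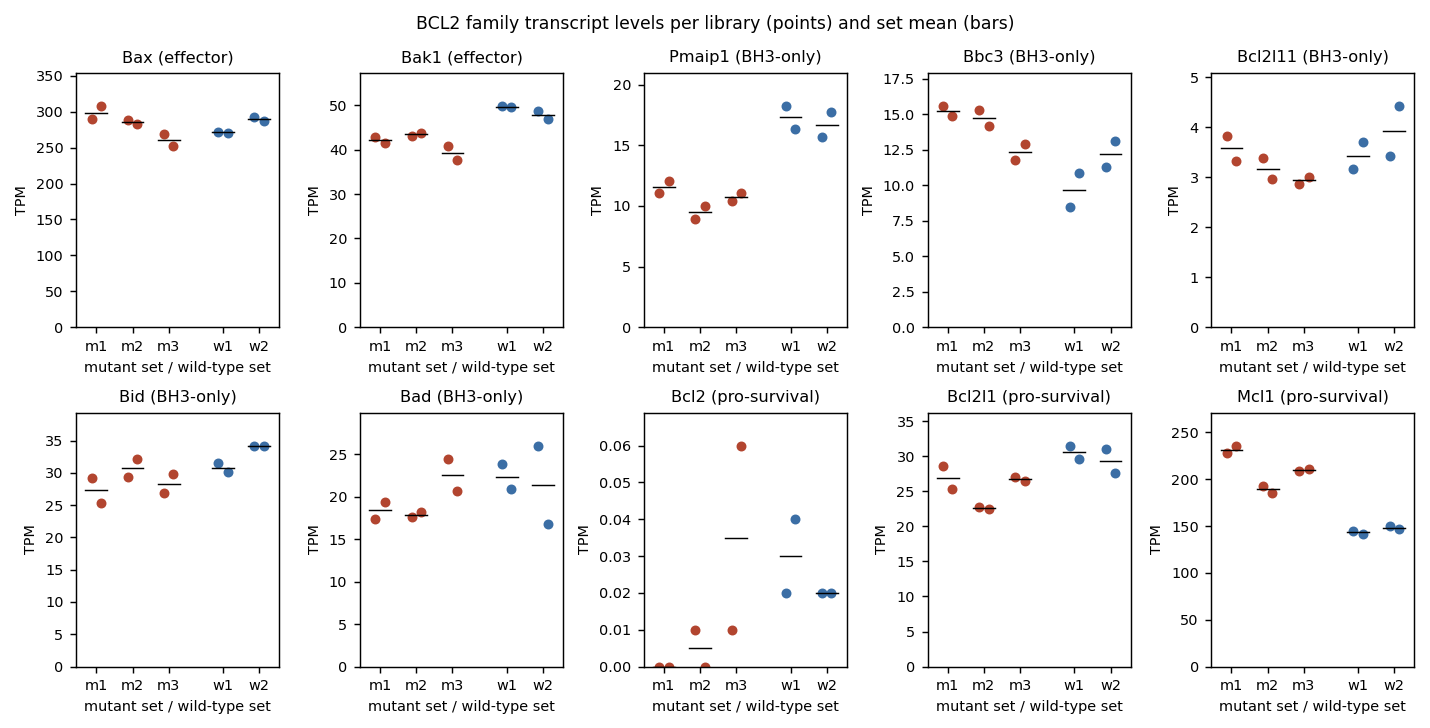
TPM (vertical axes, each starting at 0) of the 10 members in every library, by mutant set (m1 to m3, red) and wild-type set (w1 and w2, blue). Points are libraries and bars are set means. Mcl1 lies higher in all 6 mutant libraries, Pmaip1 and Bak1 lie lower in all 6, and the remaining members overlap between the genotypes.

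The effectors are the pore-forming members. Bax (ENSMUSG00000003873.11, mm10 chromosome 7, 45461697 to 45466898, minus strand) was the most abundant member in both genotypes. Its TPM was 290 and 307 in mutant set 1, 289 and 283 in mutant set 2 and 269 and 253 in mutant set 3, against 272 and 271 in wild-type set 1 and 292 and 287 in wild-type set 2. Mutant libraries lay both above and below the wild-type ones, and the means were 282 ± 19.3 TPM in mutant sets and 280.4 ± 12.9 TPM in wild-type sets. The log2 fold change was 0.00 ± 0.08 (SE; limma adjusted p = 0.971), and its 95% interval ran from -0.18 to 0.19. The sign of so small a value turned negative after a GC correction and in 7 of the 15 fits that leave out a set or library.

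Bak1 (ENSMUSG00000057789.14, mm10 chromosome 17, 27019810 to 27029009, minus strand), the other effector, was at 42.8 and 41.5 TPM in mutant set 1, 43.1 and 43.8 TPM in mutant set 2 and 40.8 and 37.6 TPM in mutant set 3, against 49.8 and 49.5 TPM in wild-type set 1 and 48.7 and 47.0 TPM in wild-type set 2. Every mutant library was below every wild-type library. The means were 41.6 ± 2.19 TPM in mutant sets and 48.8 ± 1.27 TPM in wild-type sets, a ratio of 0.853, and the log2 fold change of -0.23 ± 0.08 did not pass the test (limma adjusted p = 0.096). It passed in a fit of the 10 libraries that treats sets as random blocks (adjusted p = 0.0205) and after a GC correction (-0.35, adjusted p = 0.0287), and its adjusted p lay between 0.0039 and 0.33 over all alternatives.

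The BH3-only genes encode the stress sensors. Pmaip1, which encodes NOXA, a BH3-only protein that binds MCL1 (ENSMUSG00000024521.8, mm10 chromosome 18, 66458533 to 66465565, plus strand), had 11.03 and 12.05 TPM in mutant set 1, 8.94 and 10.02 TPM in mutant set 2 and 10.44 and 11.04 TPM in mutant set 3, against 18.2 and 16.4 TPM in wild-type set 1 and 15.7 and 17.7 TPM in wild-type set 2. All mutant libraries were lower than all wild-type libraries. Pmaip1 fell to 10.6 ± 1.04 TPM in mutant sets, against 17.0 ± 0.428 TPM in wild-type sets, a ratio of 0.623. Its log2 fold change was -0.64 ± 0.11 (limma adjusted p = 0.0151), larger in size than that of 90.6% of tested genes. Without wild-type set 1 the adjusted p was 0.112 and without wild-type set 2 it was 0.131, fits in which the lone wild-type set is assumed to vary like the mutant sets, while the fold changes were -0.61 and -0.66. With no filter on low genes the adjusted p was 0.0501.

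Bbc3, which encodes PUMA, a BH3-only protein that can bind every pro-survival protein (ENSMUSG00000002083.13, mm10 chromosome 7, 16308393 to 16318205, plus strand), was at 15.6 and 14.9 TPM in mutant set 1, 15.3 and 14.2 TPM in mutant set 2 and 11.8 and 12.9 TPM in mutant set 3, against 8.49 and 10.9 TPM in wild-type set 1 and 11.3 and 13.1 TPM in wild-type set 2. Mutant sets 1 and 2 lay above all wild-type libraries, whereas mutant set 3 lay within the wild-type range. The log2 fold change of 0.35 ± 0.14 did not pass the test (limma adjusted p = 0.125, 95% interval 0.02 to 0.68). Within each library Bbc3 exceeded Pmaip1 in the mutant, by 1.13 to 1.71 times, and was below Pmaip1 in the wild type, at 0.466 to 0.741 times its level.

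Bcl2l11, Bid and Bad did not pass the test, and the libraries of the genotypes overlapped for all 3. Bcl2l11, encoding BIM, a potent BH3-only activator (ENSMUSG00000027381.16, mm10 chromosome 2, 128126038 to 128162547), was low, at 2.87 to 3.83 TPM in mutant libraries and 3.16 to 4.42 TPM in wild-type libraries (-0.14 ± 0.14, limma adjusted p = 0.502). Bid, whose protein is activated by caspase-8 cleavage and links death receptors to mitochondria (ENSMUSG00000004446.12, mm10 chromosome 6, 120891930 to 120916853), was at 25.4 to 32.2 TPM in mutant libraries and 30.1 to 34.2 TPM in wild-type libraries (-0.17 ± 0.09, limma adjusted p = 0.241). Bad, a BH3-only protein held inactive by growth factor signalling (ENSMUSG00000024959.14, mm10 chromosome 19, 6941861 to 6951899), was at 17.4 to 24.4 TPM in mutant libraries and 16.7 to 26.0 TPM in wild-type libraries (-0.14 ± 0.12, limma adjusted p = 0.43). The 95% intervals ran from -0.47 to 0.19 for Bcl2l11, from -0.39 to 0.05 for Bid and from -0.42 to 0.14 for Bad, and the value for Bad was 0.01 without replicate 1 of wild-type set 2.

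Among the pro-survival genes, Mcl1 carried most of the transcript. Mcl1, encoding a short-lived protein that binds BAK, BIM and NOXA (ENSMUSG00000038612.16, mm10 chromosome 3, 95658788 to 95663176, plus strand), had 228 and 236 TPM in mutant set 1, 193 and 186 TPM in mutant set 2 and 209 and 211 TPM in mutant set 3, against 145 and 141 TPM in wild-type set 1 and 149.7 and 147 TPM in wild-type set 2. All 6 mutant libraries were above all 4 wild-type libraries. Mcl1 rose to 210.4 ± 21.3 TPM in mutant sets, against 146 ± 3.47 TPM in wild-type sets, 1.44-fold. The log2 fold change was 0.52 ± 0.09 (limma adjusted p = 0.0163), larger in size than that of 85.6% of tested genes and ranked 570 among the 892 genes called higher. The adjusted p was 0.0522 without mutant set 3, 0.115 without wild-type set 1 and 0.131 without wild-type set 2, with fold changes of 0.52, 0.50 and 0.55, and 0.0586 with no filter on low genes.

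Bcl2l1, which encodes BCL-XL (ENSMUSG00000007659.18, mm10 chromosome 2, 152780668 to 152831728, minus strand), had 28.6 and 25.3 TPM in mutant set 1, 22.8 and 22.5 TPM in mutant set 2 and 27.1 and 26.4 TPM in mutant set 3, against 31.5 and 29.6 TPM in wild-type set 1 and 31.0 and 27.6 TPM in wild-type set 2. A single mutant library, in set 1, lay within the wild-type range and the other 5 lay below it. The log2 fold change of -0.23 ± 0.10 did not pass the test (limma adjusted p = 0.159, 95% interval -0.47 to 0.01). Bcl2, the founding member of the family (ENSMUSG00000057329.7, mm10 chromosome 1, 106538178 to 106714274, minus strand), was at 0.00 to 0.06 TPM in mutant libraries and 0.02 to 0.04 TPM in wild-type libraries, and was not tested. The deposited values have 2 decimals, so differences at this level are of the order of the rounding.

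**Figure D2:**
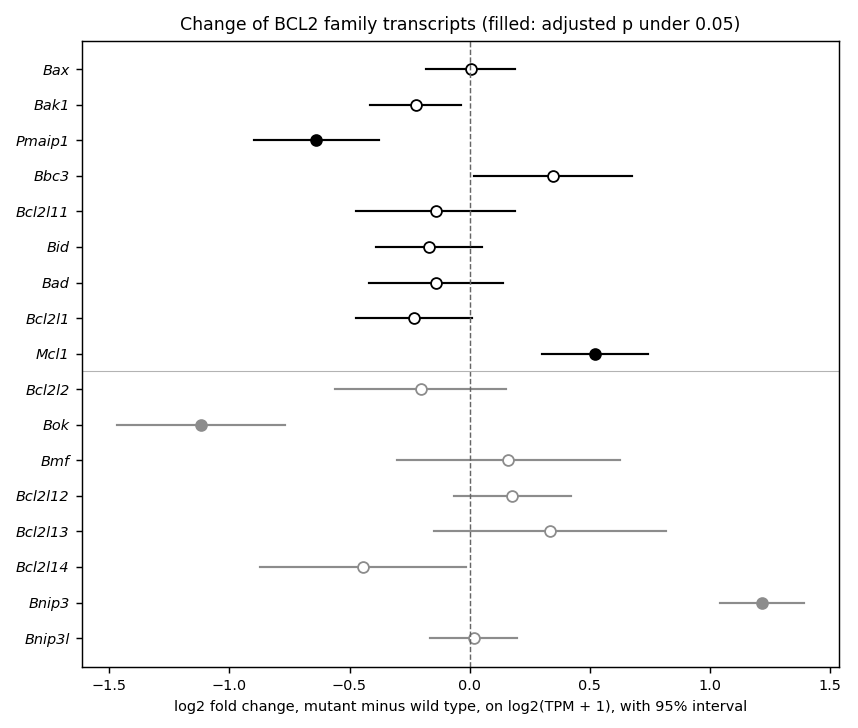
Log2 fold change on the log2(TPM + 1) scale (horizontal axis, mutant minus wild type) of the 9 tested members (black, above the line) and 8 other tested BCL2 family genes (grey), with 95% intervals from limma on set means. Filled points have an adjusted p under 0.05: Pmaip1 and Bok lie to the left of 0, and Mcl1 and Bnip3 to the right.

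The promoters of Mcl1 and Bak1 are shown because their libraries separated the genotypes in opposite directions. RefSeq promoter sequences (GRCm38.p6, the assembly of mm10) were used for 9 of the 10 members, 15 starts in all. None was used for Pmaip1, the member called lower, whose libraries also separated the genotypes. Bak1, which did not pass the test, is therefore the only lower member shown. Each line gives the 250 bases before the RefSeq start, 5′ to 3′ on the gene's strand, with matches to 4 motifs on either strand in capitals. The motifs were the GC box spelled GGGCGG, the promoter box spelled CCAAT, the cAMP response half-site spelled TGACG and the hypoxia response core spelled ACGTG, which overlaps its own reverse complement where a further C precedes it. The Mcl1 stretch is chr3:95658471-95658720, plus strand, and the Bak1 stretch is chr17:27028628-27028877, minus strand. The Bak1 stretch lies inside the gene span given above, and the bases upstream of that span were not examined.
Mcl1: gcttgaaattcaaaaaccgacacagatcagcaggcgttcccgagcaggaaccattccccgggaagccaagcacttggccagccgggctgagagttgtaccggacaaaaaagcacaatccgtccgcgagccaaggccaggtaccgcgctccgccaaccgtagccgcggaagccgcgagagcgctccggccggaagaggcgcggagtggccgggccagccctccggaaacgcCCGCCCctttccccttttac
Bak1: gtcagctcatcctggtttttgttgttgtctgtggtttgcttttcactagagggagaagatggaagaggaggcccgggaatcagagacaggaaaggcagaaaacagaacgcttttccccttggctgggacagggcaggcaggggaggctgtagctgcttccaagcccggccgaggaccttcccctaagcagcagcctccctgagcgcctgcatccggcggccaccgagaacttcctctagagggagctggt
The Mcl1 stretch held 1 GC box, whose first base is 20 bases before the start, and no match to the other motifs, and the Bak1 stretch held no match to any of the 4. Among 32851 promoter stretches of the same length, 32.7% held the GC box, 33.8% the promoter box CCAAT, 17.8% the cAMP half-site and 16.6% the hypoxia core. The GC content of the stretches was 64.4% for Mcl1 and 58.4% for Bak1. The letters in the 3 Bcl2l1 stretches, of 47.6% to 53.2% GC, matched none of the motifs, whereas the Bcl2 stretch, of 74.8% GC, held 7 GC boxes and 1 cAMP half-site. A match describes letters in a window and no binding was measured.

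In order of level, the mutant means ran Bax, Mcl1, Bak1, Bid, Bcl2l1, Bad, Bbc3, Pmaip1, Bcl2l11 and Bcl2. The wild-type order differed only in that Pmaip1 stood above Bbc3. Neighbours whose library ranges overlapped were Bid and Bcl2l1 in both genotypes, Bcl2l1 with Bad and Bbc3 with Pmaip1 in the mutant, and Bad with Pmaip1 in the wild type. Bax lay above 96.7% and Mcl1 above 94.8% of tested genes by mean TPM, while Bcl2l11 lay above 19.8%.

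Set against each other within a library, the pro-survival transcripts took a larger place in the mutant, and Mcl1 carried that difference. Summed TPM of the 3 pro-survival genes was 236 ± 23.5 in mutant sets and 176 ± 2.58 in wild-type sets, with libraries from 208 to 261 in the mutant and from 171 to 181 in the wild type. The 7 pro-apoptotic genes summed to 399.7 ± 20.6 TPM in mutant sets and 415 ± 15.0 TPM in wild-type sets, and these libraries overlapped. The ratio of pro-survival to pro-apoptotic TPM was 0.515 to 0.646 in mutant libraries and 0.415 to 0.435 in wild-type libraries. The difference in this ratio was 0.48 on the log2 scale, and it was -0.18, in the opposite direction, with Mcl1 left out of the sum. Mcl1 made up 88.5% to 90.3% of pro-survival TPM in mutant libraries and 82.2% to 84.1% in wild-type libraries. These sums combine genes chosen for the comparison and carry no test.

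**Figure D3:**
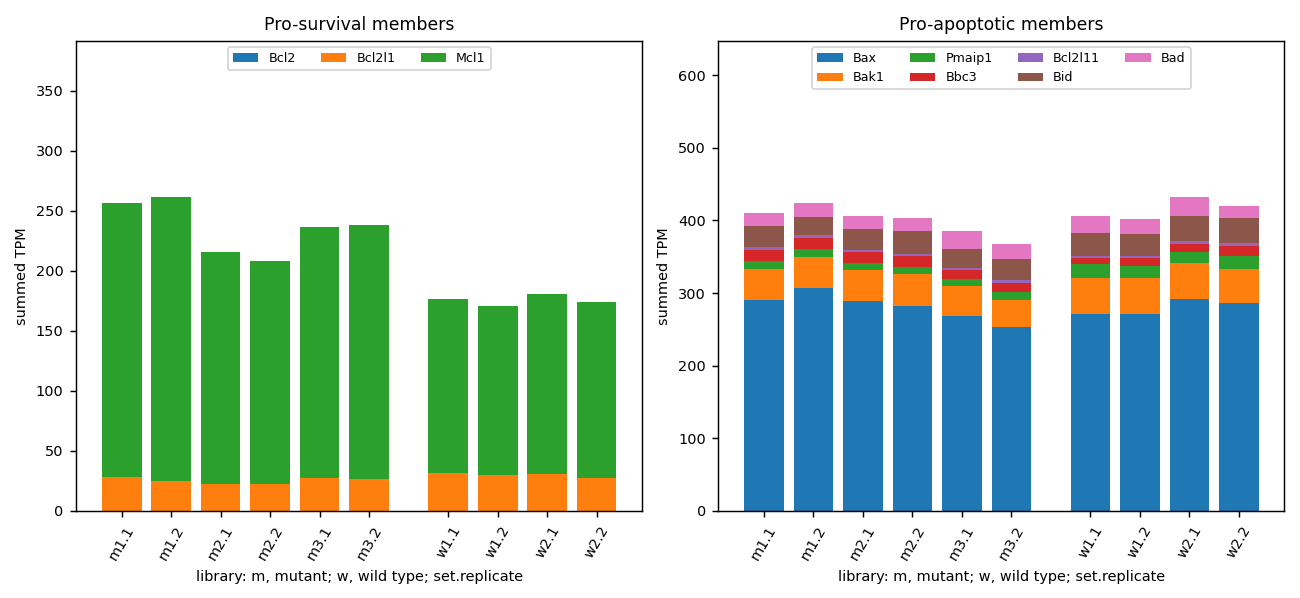
Summed TPM per library (vertical axes from 0) of the pro-survival members on the left and the pro-apoptotic members on the right, stacked by gene, with mutant libraries (m) left of wild-type libraries (w) and set and replicate numbers below. Mutant pro-survival sums of 208 to 261 TPM exceed wild-type sums of 171 to 181 TPM, while pro-apoptotic sums overlap and Bax fills most of each bar.

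The pro-apoptotic side was uneven. Summed TPM of the 5 BH3-only genes was 74.6 to 77.6 in mutant libraries and 81.9 to 90.5 in wild-type libraries. That sum includes Pmaip1, the only BH3-only gene whose own libraries separated the genotypes, and it was not computed without Pmaip1. The libraries of every other BH3-only gene overlapped, so the separated sum is not a result about the BH3-only genes as a class. The effector sums, which are mostly Bax, overlapped at 291 to 349 TPM in mutant libraries and 321 to 341 TPM in wild-type libraries. Mcl1 was 18.5 to 21.5 times Pmaip1 in mutant libraries and 7.97 to 9.55 times in wild-type libraries. Mcl1 was 4.24 to 5.68 times Bak1 in mutant libraries and 2.85 to 3.12 times in wild-type libraries, whereas the ratio of Bcl2l1 to Bak1 overlapped, at 0.512 to 0.702 in mutant libraries and 0.587 to 0.637 in wild-type libraries. Both Mcl1 ratios had to separate the genotypes, since Mcl1 was higher and Pmaip1 and Bak1 were lower in every mutant library. They are no further evidence beyond those genes. Ratios of transcripts say nothing of the proteins, and MCL1 and NOXA are known to be turned over quickly.

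**Figure D4:**
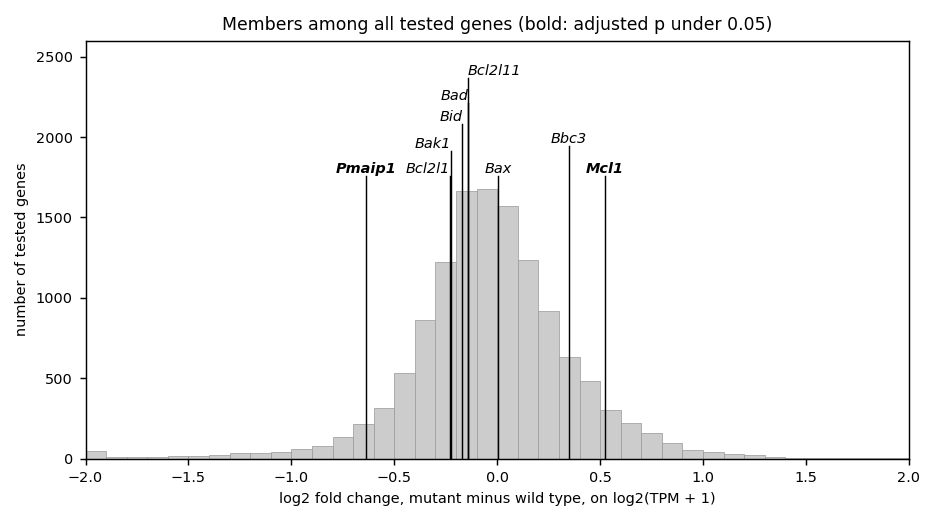
Histogram of the log2 fold change (horizontal axis, mutant minus wild type, in steps of 0.1, the end bars holding all genes beyond) of 12797 tested genes, with the number of genes on the vertical axis and the 9 tested members marked. Pmaip1 at -0.64 and Mcl1 at 0.52, in bold, are the called members and lie on opposite flanks, and 6 of the 9 members lie below 0.

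Some members also varied among sets of the same genotype. The tests of sets measure differences against the spread of the 2 libraries of a set, which may be technical repeats. Mcl1 differed among mutant sets 1, 2 and 3, with means of 232, 189 and 210.3 TPM (limma F test on libraries, adjusted p = 0.00452), and so did Bax, with 299, 286 and 261 TPM (adjusted p = 0.0294). These were 2 of the 9 tested members, where 19.6% of all tested genes differed among mutant sets. The lowest mutant set for Mcl1 still stood above both wild-type sets, at 143 and 148 TPM. Between the wild-type sets 0 members differed at an adjusted p under 0.05 (limma, where 2.75% of all tested genes did). The smallest unadjusted limma p of the tested members there were 0.0309 for Bbc3 and 0.0498 for Bax. By set means, Bax, Bak1, Bbc3 and Bcl2l11 were lowest in mutant set 3, Mcl1, Pmaip1, Bcl2l1 and Bad in mutant set 2, and Bid in mutant set 1, although only Bax and Mcl1 passed the test.

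Beyond the 10 members, 58 other genes of the apoptosis pathway were examined in 5 lists, of which 48 passed the filter. Of these 48 genes, 5 rose and 5 fell at an adjusted p under 0.05, again near the background of 17.5% of tested genes, and their median log2 fold change was -0.02. Among 8 tested relatives in the BCL2 family, 1 rose and 1 fell. Bok, a pore-forming relative of BAX and BAK, fell to 3.05 ± 0.0520 TPM in mutant sets, against 7.86 ± 1.62 TPM in wild-type sets, a ratio of 0.389 (-1.12 ± 0.15, limma adjusted p = 0.00784, and 0.0894 without wild-type set 2). Its libraries ran from 2.64 to 3.43 TPM in the mutant and from 6.19 to 9.31 TPM in the wild type. Bnip3, a mitochondrial BH3-like protein best known for mitophagy, rose to 314 ± 16.3 TPM in mutant sets, against 135 ± 7.77 TPM in wild-type sets (1.22 ± 0.07, limma adjusted p = 0.00189), and passed in all 26 alternatives.

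Of 13 tested apoptosome and caspase genes, 2 rose and 2 fell, where 17.5% of all tested genes were called. Counts this small are not a result about the list. Cycs, which encodes cytochrome c, fell to 38.8 ± 1.49 TPM in mutant sets, against 52.7 ± 1.54 TPM in wild-type sets (-0.43 ± 0.08, limma adjusted p = 0.0161). Aifm1, a mitochondrial flavoprotein, named after its value was seen, also fell (-0.29 ± 0.07, adjusted p = 0.0347), with 57.0 to 63.6 TPM in mutant libraries and 73.7 to 76.6 TPM in wild-type libraries. Casp6, an executioner caspase, rose to 8.69 ± 0.691 TPM in mutant sets, against 5.97 ± 0.212 TPM in wild-type sets (0.48 ± 0.11, adjusted p = 0.0326). Dffb, the nuclease that cuts DNA between nucleosomes, rose as well (0.49 ± 0.12, adjusted p = 0.0367), although its libraries overlapped at 8.81 to 14.8 TPM in the mutant and 6.52 to 9.22 TPM in the wild type. Apaf1 (-0.11 ± 0.10) and Casp9 (-0.06 ± 0.10), which form the apoptosome with cytochrome c, did not pass and were singled out for their role after their values were seen.

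The counts for the next 3 lists stand beside 17.5% of all tested genes called, and are too small to be results about a list. Of 7 tested inhibitors of apoptosis and their antagonists, 1 fell and the other 6 did not pass. The exception was Xiap, a direct caspase inhibitor, which fell to 23.5 ± 1.13 TPM in mutant sets, against 31.2 ± 3.22 TPM in wild-type sets (-0.39 ± 0.10, limma adjusted p = 0.0367). In the death receptor arm 0 of 7 tested genes passed. Ripk1 had the smallest unadjusted p there (limma, 0.033), at 2.19 to 3.84 TPM in mutant libraries and 3.83 to 4.59 TPM in wild-type libraries. Of 13 tested genes that govern transcription or turnover of the family, 2 rose and 1 fell. Trp53 fell to 129 ± 16.3 TPM in mutant sets, against 182 ± 12.1 TPM in wild-type sets (-0.50 ± 0.11, adjusted p = 0.0271), while Mdm2, the ubiquitin ligase for p53 and itself a p53 target, rose to 82.6 ± 1.76 TPM in mutant sets, against 65.6 ± 0.0955 TPM in wild-type sets (0.33 ± 0.07, adjusted p = 0.0225). Ddit3, the stress factor CHOP, rose to 71.3 ± 19.3 TPM in mutant sets, against 31.5 ± 1.23 TPM in wild-type sets (1.12 ± 0.20, adjusted p = 0.0169).

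Calls depended on single sets, both in the pathway lists and among all tested genes. The 2242 tested genes called became 654 with mutant set 1 omitted, 2393 with set 2 omitted and 920 with set 3 omitted. Fewer were also called when either wild-type set was omitted, which leaves a lone wild-type set. The losses below are therefore not a result about the pathway lists. Without wild-type set 1 there remained 1 higher and 1 lower call among the 48 genes, without wild-type set 2 there were 1 and 0, without mutant set 1 there were 1 and 1, and without mutant set 3 there were 2 and 3. Leaving out wild-type set 2 ended the calls of Bok, Cycs, Casp6, Dffb, Aifm1, Xiap, Trp53, Mdm2 and Ddit3 (adjusted p from 0.0894 to 0.233), and leaving out wild-type set 1 ended those of the same genes except Bok (0.0931 to 0.214). Leaving out mutant set 1 ended the calls of Cycs, Casp6, Dffb, Aifm1, Xiap, Trp53, Mdm2 and Ddit3 (0.0528 to 0.103), leaving out mutant set 3 those of Casp6, Dffb, Aifm1, Xiap, Trp53 and Mdm2 (0.062 to 0.0958), and leaving out mutant set 2 those of Dffb (0.0657) and Xiap (0.0602). Leaving out single libraries ended the calls of Dffb (6 of 10 libraries: mutant set 1 replicate 1, set 2 replicate 1, set 3 replicates 1 and 2, wild-type set 1 replicate 1 and set 2 replicate 2, with adjusted p from 0.0551 to 0.147), Casp6 (mutant set 2 replicate 2, 0.0516, and wild-type set 2 replicate 1, 0.098), Xiap (mutant set 1 replicate 1, 0.0535, and set 3 replicate 1, 0.0586) and Aifm1 (mutant set 1 replicate 1, 0.0516). The fold changes of these 10 called genes kept their sign in every alternative.

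The genes whose pattern over the 10 libraries was most like that of Pmaip1, by Pearson correlation of log2(TPM + 1) among 11344 protein-coding tested genes, were Tceal9 (r = 0.983), Arl4c (r = 0.977), 1500011B03Rik, Rnf138 and Pcsk1 (r = 0.975 each). All 5 were lower in every mutant library, which picking them for likeness to Pmaip1 nearly fixes in advance. Rnf138, an E3 ubiquitin ligase, was at 48.5 to 57.2 TPM in mutant libraries and 70.1 to 72.9 TPM in wild-type libraries. Pcsk1, a prohormone convertase, was at 0.70 to 1.30 TPM in mutant libraries and 2.69 to 2.96 TPM in wild-type libraries. Arl4c, at 0.66 to 1.01 TPM and 1.42 to 1.65 TPM, was not called (limma adjusted p = 0.113), while the others were. A correlation of 0.9 or more was reached by 360 of these genes (3.17%), and the 10 points share sets and genotypes.

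**Figure D5:**
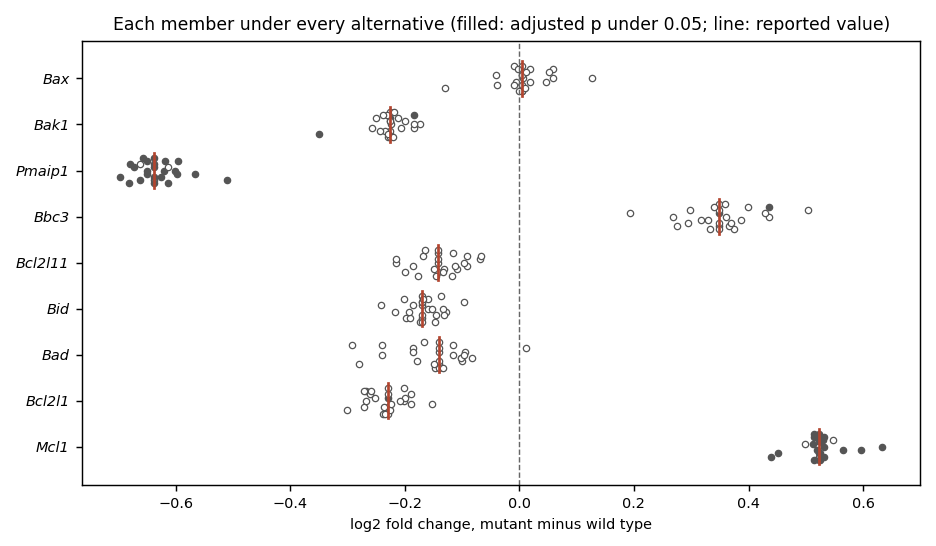
Log2 fold change (horizontal axis, mutant minus wild type) of each tested member under every alternative processing (points, spread vertically for legibility), with filled points at an adjusted p under 0.05 and the reported value as a line. Mcl1 stays between 0.44 and 0.63 and Pmaip1 between -0.70 and -0.51, while Bax spreads around 0.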

How the data were processed

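Poly(A) RNA-seq libraries from mutant (n = 6) and wild-type (n = 4) E14 cells were read from 1 table. The deposited values are TPM, computed upstream by the authors. The build mm10 and the tools Trim Galore, STAR, RSEM and DESeq2 are named in the labels, per the submitters' processing notes. Their versions, settings and strand mode, and the annotation, are not given in the sources. All 10 columns were matched to samples by name, and 0 were left out. Depth and counting error are unknown. TPM shares a fixed total, so abundant transcripts that rise lower the rest.

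Members and gene lists were chosen with earlier results of these data known. Positions come from GENCODE M21 on GRCm38, in which 55141 identifiers matched, including all members. A second Ddit3 identifier, listed at 0 in every library, was not used.

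Values were taken as log2(TPM + 1) and the 2 libraries of each set averaged. Genes averaging 1 TPM or more over the libraries were fitted with limma 3.58.1 under R 4.3.3 (two-sided; moderated variance following a trend in the mean; residual degrees of freedom 3, prior 4.01), with Benjamini-Hochberg adjustment over all 12797. Differences among sets were tested in limma on single libraries. The script was tested on simulated data. Named genes were all members, up to 3 called genes per pathway list by size of change (the smallest p where none was called), Trp53, and the 5 genes most correlated with Pmaip1.

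The alternatives tried were no filter, a filter of 5 TPM, a pseudocount of 0.1, median-of-ratios and quantile scaling, the 10 libraries as independent samples, with the set as a random block or with numbers as a replicate block, variance moderation without trend or robust, a GC correction per library (lowess, span 0.3), and omitting every set or library in turn. Figures were drawn with matplotlib 3.10.9.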

Additional observations from a re-analysis of the deposited data

Results flagged for a closer look

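Of 20 groups of libraries examined (each member in each genotype), 2 had a library far from the others, and chance alone flags about 1 in 20. Both concern Bcl2, which is barely detected. Replicate 2 of mutant set 3 was at 0.06 TPM with the other mutant libraries at 0.01 or less, and replicate 2 of wild-type set 1 was at 0.04 TPM with the other wild-type libraries at 0.02. The table is written to 2 decimals, so these gaps are a few rounding steps.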

How the results depend on the processing

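Called members numbered 1 higher and 1 lower, and over the alternatives the counts (higher, then lower) were 0 and 0 with no filter, 2 and 3 with 10 independent libraries, 1 and 2 with the set as a random block, 1 and 2 after the GC correction, and 0 to 1 for each when a set or library was left out. Leaving out either wild-type set gave 0 and 0. With set and replicate numbers as a replicate block the counts were 2 and 3. No wild-type set shares the number of mutant set 3, so that set adds nothing to the fold changes of this fit. The labels do not say that numbers pair libraries, same-numbered libraries of the genotypes had correlations of deviations of -0.066 to 0.049, and for 0 of 4 was the own number the best match. Among the pathway lists, 5 higher and 5 lower became 2 and 2 with no filter, 9 and 14 with independent libraries, 5 and 9 with the random block, 5 and 8 with the replicate block, 6 and 3 after quantile normalization and 4 and 2 without the variance trend, and ran from 1 to 5 and from 0 to 6 when a set or library was left out. All tested genes called, 2242, became 809 with no filter, 5269, 3398 and 3789 in the 3 fits on libraries, and 42 to 2393 with a set or library left out. The causes were not tested.

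With no filter Pmaip1 kept -0.64 (adjusted p = 0.0501) and Mcl1 0.52 (0.0586). Bak1 passed with independent libraries and the random block (-0.23 in both), the replicate block (-0.18) and the GC correction (-0.35), Bbc3 with independent libraries (0.35) and the replicate block (0.44), and Bcl2l1 in those 2 fits (-0.23 and -0.27). Fold changes in the replicate block equal those without mutant set 3, the set in which Bbc3 lay within the wild-type range. Bax turned to -0.13 after the GC correction. With a set or library left out the fold changes ran from -0.70 to -0.57 for Pmaip1, 0.45 to 0.60 for Mcl1, -0.26 to -0.18 for Bak1, 0.19 to 0.50 for Bbc3, -0.27 to -0.15 for Bcl2l1, -0.0418 to 0.0594 for Bax and -0.29 to 0.0107 for Bad. Members differing among mutant sets numbered 2, and 1 with no filter, 1 without the variance trend and 3 with median-of-ratios scaling. The log2 ratio of pro-survival to pro-apoptotic sums, 0.48, was 0.43 to 0.56 with a set or library left out and -0.18 without Mcl1. In place of sums, the median log2 fold change of pro-survival genes minus that of pro-apoptotic genes was 0.29. Only Mcl1 and Bcl2l1 were tested among the pro-survival genes, so that value still depends on Mcl1. Scaling moved the median of all genes by less than 0.1.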

Other observations

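Several family and pathway genes lay under the filter and entered no test. Bcl2l15, a little-studied family member, was at 0.00 to 0.24 TPM in mutant libraries and 0.44 to 1.57 TPM in wild-type libraries, without overlap. Trp73, the p53 relative p73, was at 0.95 to 1.45 TPM in mutant libraries and 0.42 to 0.75 TPM in wild-type libraries, also without overlap. Bik was at 0.38 to 1.46 TPM in mutant libraries and 0.16 to 0.87 TPM in wild-type libraries, and Fas, a death receptor, at 0.00 to 0.32 TPM in mutant libraries and 0.05 to 0.36 TPM in wild-type libraries. The Bcl2a1 copies Bcl2a1a and Bcl2a1d, near-identical genes between which reads are hard to assign, were listed at 0 in every library. These genes were picked out after their values were seen. The share of all genes under the filter with separated libraries was not counted, so the separations are not a result about the family.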
